A study of Mus musculus with 3 samples.

Results

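Type 1 conventional dendritic cells (cDC1) of the mouse kidney are described here in 3 regions of the organ, the cortex, the inner medulla (IM) and, between them, the outer medulla (OM). They are the 303 cells, of 20266 immune cells in all, that the authors' cluster annotation names cDC1, and they were compared with the 668 cells annotated as type 2 conventional dendritic cells (cDC2). All cells came from wild-type, untreated male C57BL/6J mice aged 10 weeks, so the groups share strain, sex, age and treatment and differ in the compartment only. Kidneys were perfused with PBS, dissected by hand into the 3 compartments, digested with collagenase and DNase and sorted for the pan-leukocyte antigen CD45. The 3 groups held 152 cDC1 from cortex, 86 from OM and 65 from IM. Each compartment was sequenced as droplet libraries at 3 facilities (Aachen, Bonn and Hamburg), and the cells of 1 compartment of 1 facility are called a library, so that there were 9 libraries and each compartment had 3 replicates, 1 per dataset. Nothing in the sources used here says how many mice entered a library. The p-values thus rest partly on how far compartment differences vary between these datasets, which may be technical in part. The gene tests also draw on a spread pooled over all genes tested. A gene can therefore pass without going 1 way in all 3 datasets, as Ccl7 and Ier3 did.

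Conventional dendritic cells sample antigen in tissues and present it to T cells. The cDC1 branch depends on the transcription factors IRF8 and BATF3, carries the chemokine receptor XCR1 and the dead cell receptor CLEC9A, and is known for cross-presentation, the loading of peptides from engulfed material onto MHC class I for CD8 T cells. The cDC2 branch depends more on IRF4, carries C-type lectins such as CLEC10A and CD209A, and is known for presentation on MHC class II to CD4 T cells.

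The number of cDC1 per library was 43, 21 and 28 in Aachen cortex, OM and IM, 56, 7 and 13 in the same order at Bonn, and 53, 58 and 24 at Hamburg. The cDC1 of a library summed to between 45217 and 590335 unique molecular identifiers (UMIs, each a counted RNA molecule), and their median depth per cell ran from 2276 UMIs in Aachen OM to 12388 in Bonn IM. The Aachen libraries were made with an earlier version of the 10x chemistry than those of Bonn and Hamburg, so chemistry and facility cannot be told apart. Hamburg values are mostly not whole numbers, which the paper does not explain, and they are called UMIs here as well. Of the 303 cDC1, 137 held lymphocyte marker UMIs (at least 2, of T or B cell genes) or at least 5 UMIs of the macrophage complement genes C1qa, C1qb and C1qc. In Bonn this left 16, 2 and 3 cDC1 of cortex, OM and IM without such UMIs. Barcodes shared between libraries of 1 dataset numbered 16 in Aachen, 13 in Bonn and 0 in Hamburg, and 1 cDC1 had such a barcode.

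The levels of cDC1 markers are given first, as a description. The authors built the clusters from expression and annotated them partly by known markers, so these levels are no independent check. Xcr1 stood at 2.29 to 5.14 UMIs per 10000 UMIs of cDC1 (median 3.10) over the 9 libraries. Clec9a stood at 0.663 to 5.88 per 10000, lowest in the 3 Aachen libraries. Irf8 stood at 12.2 to 23.8 per 10000. The cDC1 and cDC2 libraries did not overlap for any of these 3 genes. A UMI of Xcr1 was found in 71.0% of cDC1, 1.05% of cDC2 and 0.133% of the main B cell cluster, which should lack it and whose median depth was 2404 UMIs per cell against 6426 in cDC1 and 5172 in cDC2. With every cell thinned to 2000 UMIs the Xcr1 shares became 45.2% of cDC1, 0.412% of cDC2 and 0.122% of the B cells. Both Xcr1 and Clec9a were seen in 168 of the 303 cDC1 and at least 1 of Xcr1, Clec9a and Irf8 in 287. Of all 185 cells in the series with both receptors, 90.8% were annotated as cDC1. The T cell marker list summed to 0 to 3.53 and the B cell marker list to 0 to 4.75 UMIs per 10000 in cDC1, against medians of 30.3 and 35.8 in the T and B cell clusters.

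**Figure D1:**
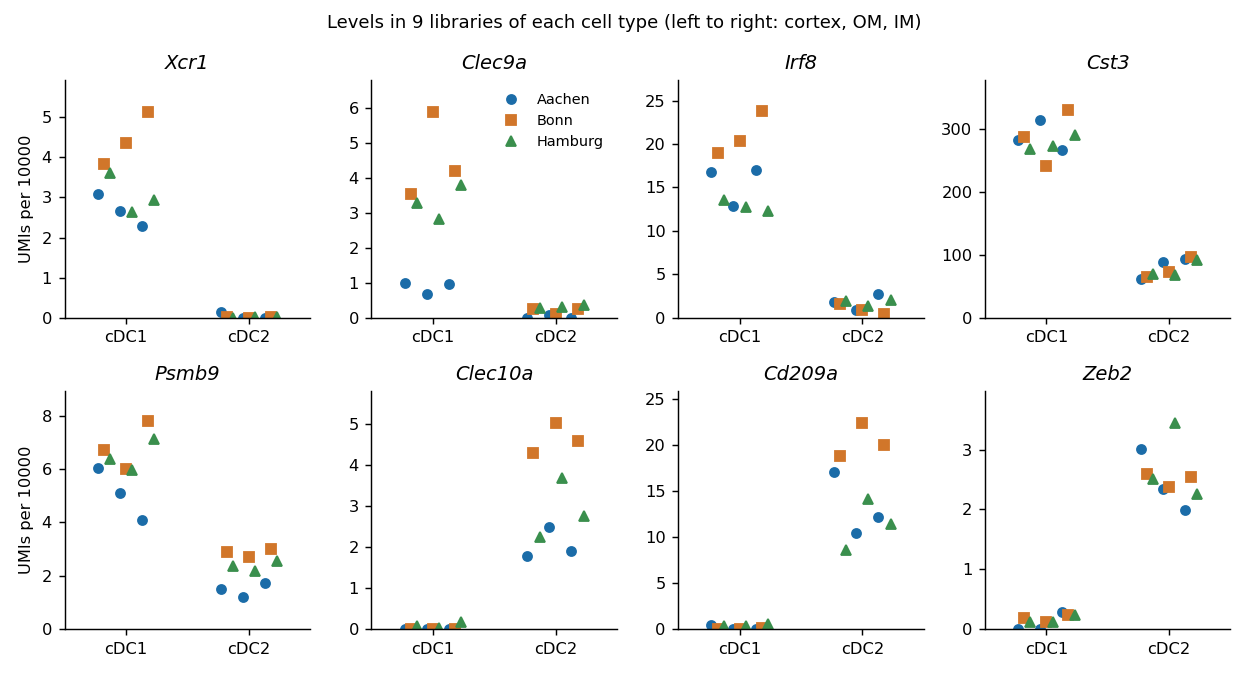
Level of 8 genes in UMIs per 10000 UMIs in cDC1 and cDC2, with 1 point for each of the 9 libraries. Xcr1, Clec9a, Irf8, Cst3 and Psmb9 lie higher in cDC1, and Clec10a, Cd209a and Zeb2 lie lower, without overlap of the libraries.

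The genes that set cDC1 apart from cDC2 are given as a description without a test, because the clusters were built from these same genes. Differences are cDC1 minus cDC2 in log2 CPM, counts scaled to library size, as mean ± SD over the 3 datasets with a prior count of 2, and for a gene with no UMI in the cDC2 of a dataset the size depends on that prior. Genes were compared if the cell type with the higher mean held at least 10 UMIs in every dataset. They thus entered through the side where they were high, which limits all percentages and list counts against cDC2. Of these 3437 genes, 638 (18.6%) lay to the same side in 9 of 9 libraries, 270 (7.86%) higher and 368 (10.7%) lower in cDC1. The median difference over all these genes was 0.026. Of the 14 cDC1 marker genes among them, 13 were higher in every library and the list median was 3.78. The exception, Snx22, was higher in 8 of 9. The largest differences were those of Xcr1 (6.49 ± 0.60), of Gcsam (6.18 ± 0.34), a germinal centre associated signalling protein, and of P2ry14 (5.25 ± 0.79), a receptor for UDP-glucose. Of 13 cDC2 marker genes, 12 were lower in cDC1 in every library, led by Clec10a (-6.29 ± 1.26) and Cd209a (-6.21 ± 1.64).

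Among transcription factors, 3 of 23 were higher and 8 lower in cDC1 in 9 of 9 libraries. Irf8, the lineage factor, differed by 3.57 ± 0.78. Batf3, its partner, differed by 1.12 ± 0.38. Id2, an inhibitor of E-protein factors needed for cDC1, differed by 1.99 ± 0.25. These were the 3 that lay higher in cDC1 in all libraries. Zeb2, a repressor that opposes the cDC1 fate, stood at 0 to 0.286 per 10000 in cDC1 against a cDC2 median of 2.51, and Irf4 at 0 to 0.0796 against 0.508. Relb, Irf1, Stat3 and Bhlhe40, factors that take part in activation, also lay lower in cDC1.

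Genes for sensing and for handling of engulfed material split between the cell types. Tlr3, the receptor for double-stranded RNA in endosomes, stood at 0.464 to 2.24 per 10000 in cDC1, while cDC2 had no UMI of it in the 3 Aachen libraries and at most 0.0859 elsewhere. Tlr11 and Tlr12, which sense profilin, were higher in cDC1 than in any of the other 22 clusters, at medians of 0.597 and 0.359 per 10000. Of 16 genes of uptake and cross-presentation, 6 were higher and 4 lower in cDC1 in every library, with a list median of 0.25. Higher members were Clec9a, Cd36, a scavenger receptor (4.27 ± 0.97), Wdfy4, which is required for cross-presentation of cell-bound antigen (1.86 ± 0.28), and Rab11a of the recycling endosome (1.02 ± 0.09). Cybb, the catalytic subunit of the phagocyte NADPH oxidase, was among the lower members, at a cDC1 median of 0.239 against 3.59 in cDC2. The lysosomal enzymes Ppt1 and Naaa separated the cell types by 3.84 ± 0.23 and 3.54 ± 0.35.

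In the MHC class I list 5 of 14 genes were higher and 2 lower in cDC1 in 9 of 9 libraries, with a list median of 0.26. Psmb9, a catalytic subunit of the immunoproteasome, stood at 4.10 to 7.78 per 10000 in cDC1 and at 1.21 to 3.01 in cDC2, a difference of 1.52 ± 0.33. Psme1, a proteasome activator subunit, differed by 0.81 ± 0.11, Pdia3, a chaperone of the loading complex, by 0.83 ± 0.25, and Psmb8, another immunoproteasome subunit, by 0.66 ± 0.13. For these 4 of the 5 higher genes cDC1 ranked first of the 23 clusters. The fifth was the peptide transporter subunit Tap2 (0.87 ± 0.38). Other genes of peptide supply and loading lay close to cDC2, with -0.07 ± 0.05 for the proteasome subunit Psmb10, -0.16 ± 0.15 for the loading factor Tapbp and -0.10 ± 0.19 for the chaperone Canx. The heavy chains H2-K1 (-0.53 ± 0.13) and H2-D1 (-0.52 ± 0.08) were lower in cDC1 in every library, with the limit that reads of such near-identical genes can be split between them.

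None of 11 MHC class II genes was higher in cDC1 in every library and 6 were lower. The invariant chain Cd74 stood at 258 to 395 per 10000 in cDC1, with a difference of -0.37 ± 0.07 from cDC2. The cathepsin Ctss (-1.34 ± 0.21) and the legumain Lgmn (-2.43 ± 0.37), proteases that cut the invariant chain and antigen, differed more. Cst3, the secreted cathepsin inhibitor cystatin C, went the other way. It stood at 242 to 331 per 10000 in cDC1 and 62.2 to 96.9 in cDC2, a difference of 1.82 ± 0.07, and cDC1 ranked first of the 23 clusters.

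Most of the chemokine, cytokine and maturation genes that could be compared lay on the cDC2 side. Of 15 chemokine and cytokine genes 7 were lower in cDC1 in every library and 0 higher, with a list median of -2.09. Il1b, the inflammatory cytokine interleukin 1 beta, stood at a median of 0.191 per 10000 in cDC1 and 6.51 in cDC2. Of 14 maturation genes compared, out of 25 listed, 9 were lower and 0 higher, with a list median of -2.10. Ccr7, the receptor that guides migration to lymph nodes, stood at 0 to 0.632 in cDC1 against a cDC2 median of 1.89. Il12b, an interleukin 12 subunit gene of that list, had too few UMIs to be compared. Its mean was 0.230 per 10000 in cDC1, first of the 23 clusters, and 0.160 in cDC2. By dataset its cDC1 levels were 0.058, 0 and 0.633 in Aachen, Bonn and Hamburg. Among receptors 3 of 20 were higher, including the chemokine receptor Cxcr3 (3.09 ± 0.60) and the interferon gamma receptor chain Ifngr1 (0.93 ± 0.20), and 7 were lower, including the growth factor receptor Csf1r (-2.50 ± 0.06). Of 18 immediate early genes, which respond to stimulation and also to tissue digestion, 9 were lower in cDC1 and 0 higher, and none of 11 heat shock genes lay to the same side in all libraries.

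**Figure D2:**
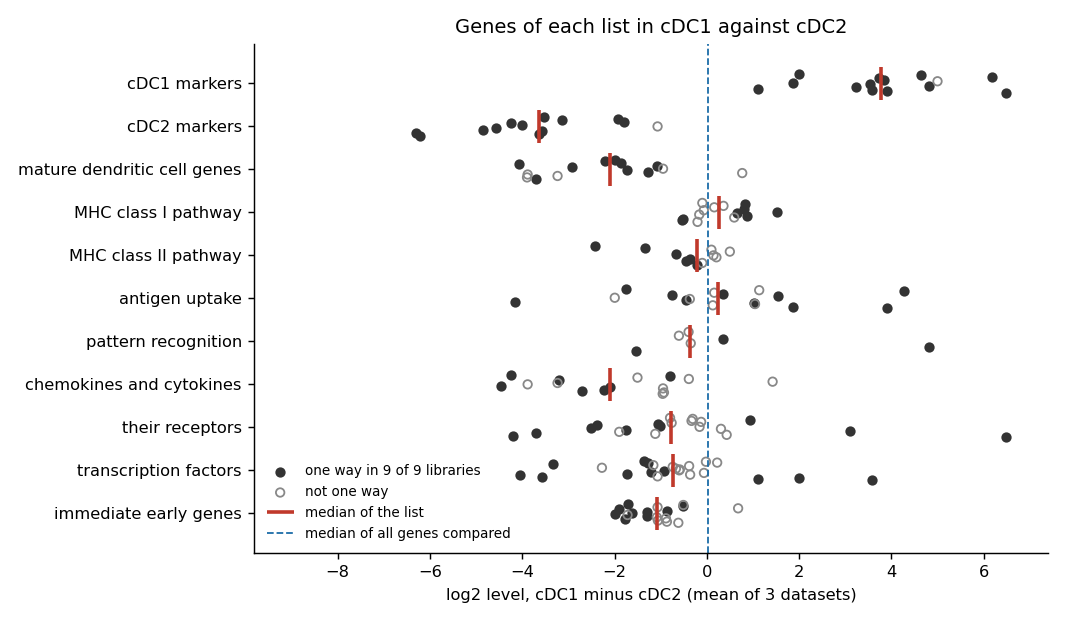
Difference between cDC1 and cDC2 in log2 CPM, mean of 3 datasets, for the genes of each list, with 1 point per gene. Filled points lie to the same side in 9 of 9 libraries, red lines mark list medians and the dashed line marks the median of all genes at 0.026. The list median of the cDC1 markers lies to the right, and those of the cDC2 markers, maturation genes and chemokines lie to the left.

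The next question was how cDC1 are distributed between the compartments. Among conventional dendritic cells, cDC1 made up 66.2%, 40.3% and 55.8% of the cortical cells of Aachen, Bonn and Hamburg. In OM the shares were 20.6%, 14.9% and 26.6%, and in IM 35.9%, 10.2% and 24.2%. In each dataset the cortex was above both medullary compartments, although the Aachen IM share lay close to the lowest cortical one, that of Bonn. The mean of OM and IM was below cortex by 32.0 ± 5.27 percentage points (SD, n = 3 datasets), with differences of -37.9, -27.8 and -30.4 (exact two-sided permutation test within datasets, p = 0.037, the smallest value the 27 arrangements allow, and 0.0741 after Benjamini-Hochberg adjustment over 2 shares). The adjusted value does not pass 0.05. OM and IM differed by -2.74 ± 11 points, less than the spread between datasets (exact permutation p = 1). Exact 95% binomial intervals of single libraries were wide, for example 53.4% to 77.4% in Aachen cortex and 6.20% to 28.3% in Bonn OM, and cover counting error only.

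As a share of all immune cells, cDC1 made up 3.08%, 1.53% and 2.16% in cortex, 0.571%, 1.13% and 2.36% in OM and 1.35%, 0.694% and 1.17% in IM of Aachen, Bonn and Hamburg. Here the compartments overlapped, since Hamburg OM lay above Hamburg cortex. The medulla was lower by 1.05 ± 0.938 points (exact permutation p = 0.111, adjusted p = 0.111). The cDC2 share of immune cells went the other way, from 1.85% ± 0.364 in cortex to 5.05% ± 2.47 in OM and 4.07% ± 1.90 in IM (SD, n = 3), a difference of 2.71 ± 1.74 points (exact permutation p = 0.037, not adjusted). The drop in the cDC1 share of conventional dendritic cells thus went with a higher cDC2 share in all 3 datasets. Sorted suspensions do not tell how many cells a compartment held.

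**Figure D3:**
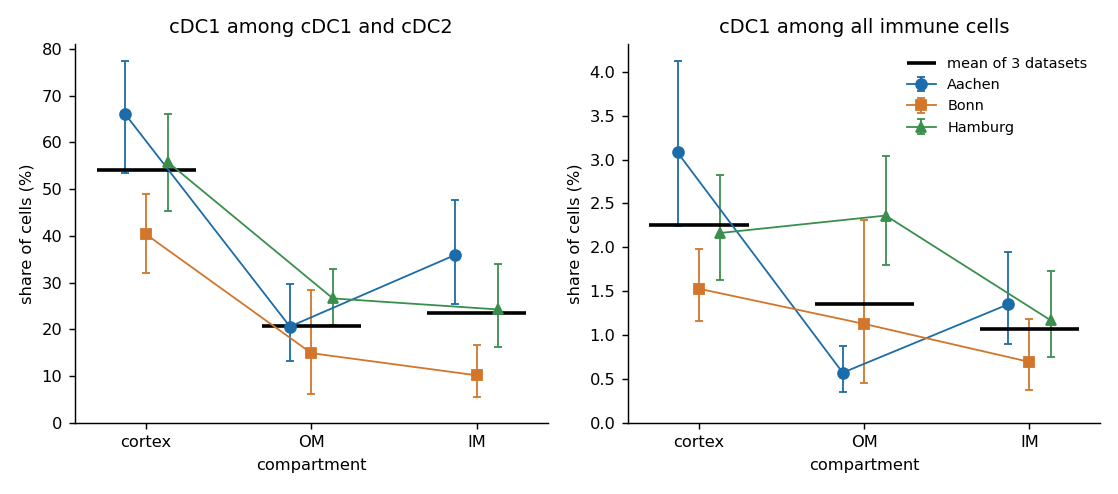
Share of cDC1 among conventional dendritic cells and among all immune cells, in percent, by compartment and dataset. Error bars are exact 95% binomial intervals and black lines are means of 3 datasets, 54.1%, 20.7% and 23.4% of conventional dendritic cells in cortex, OM and IM.

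Whether cDC1 differ in expression between compartments was tested on the summed counts of the 9 libraries with edgeR's quasi-likelihood test, with dataset as block and Benjamini-Hochberg adjustment over 3173 genes. Few genes passed an adjusted p of 0.05. In the medulla 3 genes passed against cortex (0.0945% of those tested), 1 higher (0.0315%) and 2 lower (0.063%). In OM alone 3 genes passed (0.0945%), all lower, and in IM alone 4 (0.126%), 3 higher (0.0945%) and 1 lower (0.0315%). Between OM and IM 1 gene passed (0.0315%), lower in OM. At an unadjusted p under 0.05 the numbers were 109 (3.44%), 97 (3.06%), 116 (3.66%) and 107 (3.37%), and DESeq2 called 0, 0, 2 and 0 genes. None of the 17 cDC1 marker genes tested passed in the medulla. The log2 fold change of medulla over cortex was -0.15 ± 0.18 (SE) for Xcr1, 0.15 ± 0.20 for Clec9a, -0.05 ± 0.13 for Irf8 and -0.00 ± 0.08 for Cst3. The MHC class I list (16 genes tested, median -0.00), the MHC class II list (10, median -0.03) and the list of uptake genes (15, median -0.03) also had no gene past the threshold, beside a median of -0.026 over all genes.

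The gene that passed as higher in the medulla was C1qb, and in IM alone C1qb, C1qa and Apoe passed, all 3 from the list of resident macrophage markers. C1qb and C1qa, subunits of the complement initiator C1q, lie next to each other on chromosome 4 (GRCm38.p6, 136880126 to 136886200 and 136895916 to 136898844). C1qb stood at 0.310, 0.663 and 3.34 per 10000 in Aachen cortex, OM and IM. The Bonn levels were 0.762, 1.29 and 3.17, and those of Hamburg 0.022, 0.287 and 0.223. Every dataset was lowest in cortex, but the groups overlapped across datasets. The log2 fold change was 1.91 ± 0.34 in the medulla (edgeR adjusted p = 0.00876) and 2.47 ± 0.34 in IM (2.36e-04). C1qa rose by 1.86 ± 0.35 in IM (edgeR adjusted p = 0.0176), a call lost without Aachen cortex, Aachen IM, Bonn cortex, Hamburg OM or Hamburg IM (1.36 to 2.12), and stood at 1.31 with an adjusted p of 0.268 in the medulla as a whole. The third subunit C1qc, between them on the chromosome, stood at 1.82 ± 0.39 in IM and did not pass (edgeR adjusted p = 0.0547).

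Apoe, the lipid carrier apolipoprotein E, stood at 0.206, 1.33 and 5.05 per 10000 in Aachen cortex, OM and IM, and the Bonn levels were 2.56, 1.88 and 6.94. Hamburg had 0.192, 0.241 and 1.09. IM was highest in every dataset. The log2 fold change was 2.19 ± 0.31 in IM against cortex (edgeR adjusted p = 2.36e-04) and -2.07 ± 0.38 in OM against IM (0.0359). The call of C1qb and of Apoe in IM held without each of the 9 libraries in turn, at 2.13 to 3.39 and 1.73 to 3.37. The call of C1qb in the medulla was lost without Hamburg cortex, Hamburg OM, Aachen cortex or Bonn OM (1.67 to 2.14). That of Apoe between OM and IM was lost without any of 5 libraries, Aachen OM, Aachen IM, Bonn OM, Hamburg OM and Hamburg IM (-2.22 to -1.74).

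These transcripts sat in few cells. Of 303 cDC1, 34 held any UMI of C1qb, and 1 cell held 40 of all 171 (23.4%). In Bonn IM 2 of 13 cells held the 53 UMIs of C1qb. Apoe was found in 48 cDC1, where 1 cell held 31.5% of the UMIs. The whole list of 14 macrophage markers summed to 6.50, 6.86 and 19.8 per 10000 in cDC1 of Aachen cortex, OM and IM, and the Bonn sums were 9.25, 14.8 and 21.5. Those of Hamburg were 5.08, 5.14 and 6.38, against a median of 354 in the macrophage clusters. The tetraspanin Cd81 of that list is held by cDC1 in every library, at 2.12 to 4.67. In T and B cells, which should lack these genes, the same list summed to between 2.84 (Hamburg cortex) and 34.0 (Aachen OM). C1qb was higher in cDC1 than in T and B cells in 4 of 9 libraries only. The medulla minus cortex log2 difference of C1qb in T and B cells was 1.43, -0.83 and 0.62 in Aachen, Bonn and Hamburg. For C1qa it was 1.26, -0.54 and 0.89, and for Apoe 1.53, 0.29 and -0.61, in the same order. Of 8 macrophage markers tested in cDC1, 8 had a positive fold change in the medulla, with a median of 1.27 and 1 past the threshold, and 3 passed in IM, where the median was 1.83. Without cells that held 5 or more C1q UMIs, or 2 or more of lymphocyte genes, the IM log2 fold change was -1.09 for C1qb and 1.38 for Apoe. Neither passed the threshold, and a loss of C1q is built into that choice. That choice also left out the Bonn OM and IM libraries, where 2 and 3 cDC1 remained, under the minimum of 5. The part of macrophage RNA in these differences was not tested.

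The genes lower in the medulla respond to stimulation. Ier3, an immediate early regulator of survival, stood at 1.08, 0.442 and 0.286 per 10000 in Aachen cortex, OM and IM and at 2.0, 0.280 and 0.307 in Hamburg. In Bonn it was near absent, at 0.051, 0.118 and 0.060. Cortex was highest in Aachen and Hamburg and lowest in Bonn. The log2 fold change was -2.38 ± 0.34 in the medulla (edgeR adjusted p = 4.94e-04), -2.46 ± 0.43 in OM (0.00877) and -2.30 ± 0.45 in IM (0.0189). Without Hamburg OM these 3 calls were lost (-1.59, -0.89 and -2.29), and without Hamburg IM those of the medulla (-2.11) and of IM (-1.72).

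Ccl7, a chemokine for monocytes on chromosome 11, was found in 25 cDC1. It stood at 4.43, 0.435 and 2.66 per 10000 in Hamburg cortex, OM and IM, at 1.08 in Aachen cortex with no UMI in Aachen OM or IM, and no cDC1 of Bonn held a UMI. The log2 fold change was -2.32 ± 0.33 in the medulla (edgeR adjusted p = 4.94e-04) and -3.55 ± 0.45 in OM (1.85e-04). Without Hamburg OM both calls were lost (-3.50 and -5.89), and without Hamburg cortex that of the medulla (-7.21). Its neighbour Ccl2 stood at -1.06 in the medulla and did not pass (edgeR adjusted p = 0.223).

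Nfkbia, the inhibitor that NF-kB induces against itself, was seen in 201 of 303 cDC1. It stood at 6.81, 2.65 and 2.96 per 10000 in Aachen cortex, OM and IM, and the Bonn levels were 1.39, 1.06 and 1.32. Hamburg had 8.63, 3.06 and 6.64. Cortex was highest in all 3 datasets. The log2 fold change was -1.35 ± 0.26 in OM (edgeR adjusted p = 0.029) and -0.96 ± 0.20 in the medulla as a whole, which did not pass (0.0505). The OM call was lost without Aachen cortex, Aachen OM or any Hamburg library, at -1.40 to -0.90. Of 20 immediate early genes tested, 19 had a negative fold change in the medulla, with a median of -0.46 and 1 past the threshold, and 19 in OM, with a median of -0.68 and 2 past it. Other genes among the 10 smallest p-values of the medulla did not pass, among them the stress-induced phosphatase subunit Ppp1r15a at -0.96 (edgeR adjusted p = 0.123), Hspb1 at -1.68 (0.268) and the calcium-binding protein S100a4 at 1.81 (0.268).

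The summed immediate early list was highest in the 3 Hamburg libraries. It came to 128, 28.3 and 63.7 per 10000 in cDC1 of Aachen cortex, OM and IM, while the Bonn sums were 18.9, 18.5 and 42.8 and the Hamburg sums 293, 214 and 203. In T and B cells the sum was also highest in the cortex library of Aachen (190, against 120 and 159 in OM and IM) and of Hamburg (274, against 266 and 236), while in Bonn it was lowest there, at 47.1. The heat shock list of cDC1 summed to 147, 83.2 and 111 in cortex, OM and IM of Aachen, to 69.7, 71.3 and 83.4 in those of Bonn and to 224, 187 and 192 in those of Hamburg. The part that tissue digestion plays in these differences was not tested.

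**Figure D4:**
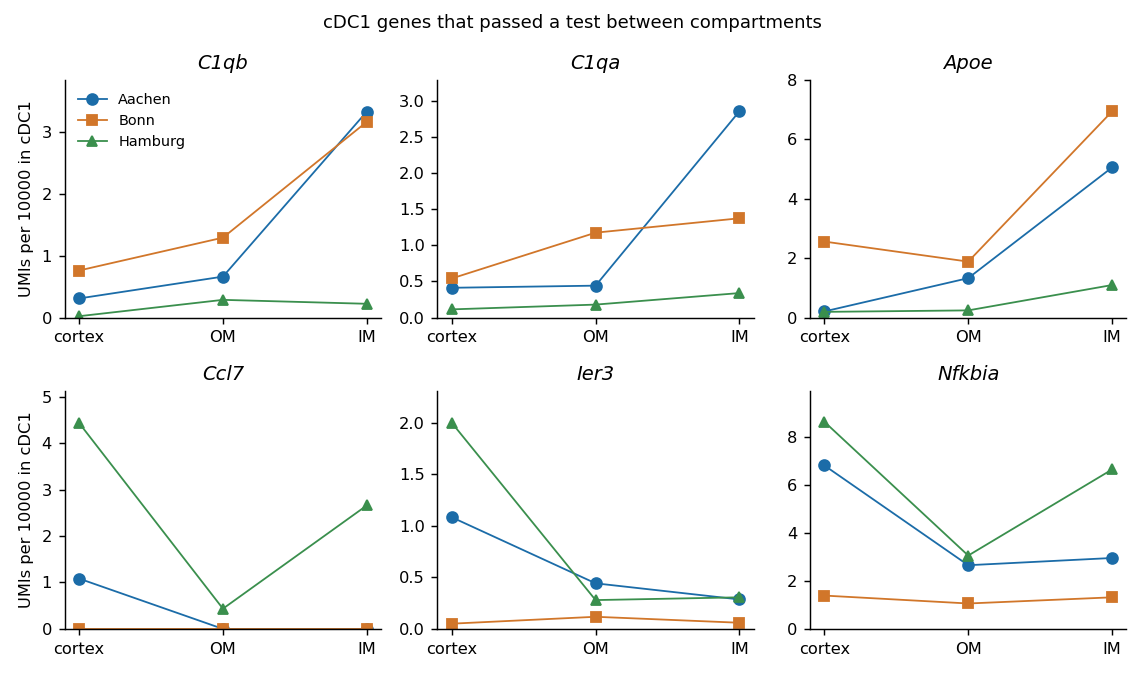
Level of C1qb, C1qa, Apoe, Ccl7, Ier3 and Nfkbia in cDC1 in UMIs per 10000 UMIs, by compartment, with 1 point per library and lines joining the libraries of a dataset. C1qb is lowest in cortex in all 3 datasets, and Ccl7 has no UMI in Bonn.

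Outside the macrophage and immediate early lists, no list had a gene past the threshold between compartments. The cDC1 of the medulla showed a median log2 fold change of 0.28 over 9 interferon response genes, 0.09 over 12 hypoxia and glycolysis genes and 0.01 over 4 genes of the response to osmotic stress, which in the kidney is highest in the inner medulla. The whole osmotic list summed to 3.05, 3.41 and 3.55 per 10000 in IM of the 3 datasets and to 3.77, 3.40 and 3.86 in cortex.

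The last question was whether compartment effects differ between cDC1 and cDC2. The difference itself was tested by an edgeR interaction term over 4833 genes, and 14 (0.29%) passed, 6 of them positive (0.124%) and 8 negative (0.166%), with 216 (4.47%) at an unadjusted p under 0.05 and 0 adjusted calls by DESeq2. C1qb stood at 1.91 in cDC1 and -0.68 in cDC2 for medulla against cortex, an interaction of 3.12 ± 0.50 (edgeR adjusted p = 5.82e-04) that held without each of the 9 libraries in turn. Hspb1, a small heat shock protein, stood at -1.68 in cDC1 and 2.54 in cDC2, with an interaction of -4.04 ± 0.62 (5.82e-04), and this call was lost without Hamburg cortex (-2.70). Dnajb1, a co-chaperone of HSP70, went the same way as Hspb1, at -1.60 ± 0.25 (5.82e-04), and passed without each library but Aachen IM (-1.67). Itgae, the integrin CD103 carried by many cDC1, was seen in 80 cDC1, at 0 to 1.14 per 10000, and had an interaction of -4.04 ± 0.73 (0.00418). In cDC2 it had no UMI in the 3 Aachen libraries and went from 0.0131 in cortex to 0.130 and 0.290 in Bonn OM and IM, and from 0.0357 to 0.551 and 0.281 in Hamburg, while its fold change in cDC1 was -0.35. This call was lost without Bonn cortex (-3.65) or Hamburg OM (-3.90). Cst3 was level in cDC1 (-0.00) and stood at 0.44 in cDC2, an interaction of -0.48 ± 0.11 (0.0307) that was lost without any 1 of the Aachen libraries (-0.47 to -0.32).

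**Figure D5:**
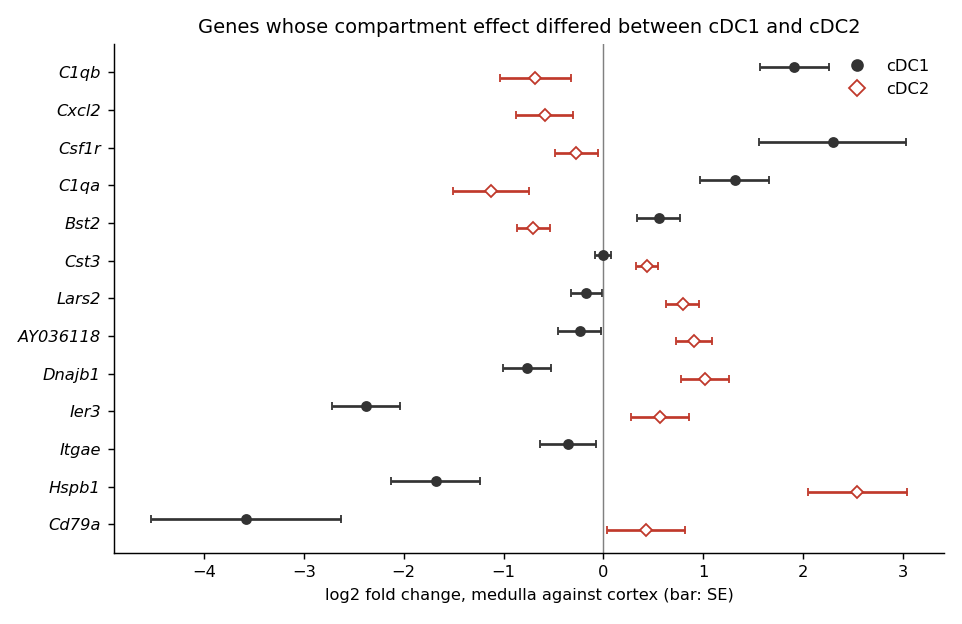
Log2 fold change of medulla over cortex in cDC1 and in cDC2 for 13 of the 14 genes whose interaction passed, with bars of 1 SE from edgeR. C1qb and C1qa lie above 0 in cDC1 and below it in cDC2, and Hspb1 and Dnajb1 the other way. Cxcl2 was not tested in cDC1 alone, nor Itgae in cDC2 alone.

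Dividing and mature cells were counted within cDC1. A UMI of 2 or more of 10 cell cycle genes was found in 42 of 303 cDC1 (13.9%, exact 95% interval 10.2% to 18.3%) and in 25 of 668 cDC2 (3.74%). With each cell thinned to 2000 UMIs the shares were 14 of 270 cDC1 (5.19%, 2.86% to 8.55%), 4 of 485 cDC2 (0.825%) and 0 of 2466 cells of the main B cell cluster, with 33 cDC1 and 183 cDC2 too shallow to be used. By compartment, pooled over datasets, the counts were 23 of 152 cDC1 in cortex (15.1%), 15 of 86 in OM (17.4%) and 4 of 65 in IM (6.15%, 1.70% to 15.01%). In cortex, OM and IM of Aachen they were 5 of 43, 0 of 21 and 2 of 28. Bonn had 7 of 56, 3 of 7 and 1 of 13, and Hamburg 11 of 53, 12 of 58 and 1 of 24. The order of the compartments thus differed between datasets. After thinning the pooled counts were 7 of 140, 7 of 72 and 0 of 58. The exact interval for IM then reaches 6.16% and covers cells with such UMIs at that depth only, not all dividing cells. Mki67, a marker of dividing cells, had no UMI in OM and IM of Aachen and in IM of Bonn, and its log2 fold change in IM was -2.81 ± 0.74 without passing (edgeR adjusted p = 0.33). At least 2 of 8 maturation genes were seen in 2 of 270 thinned cDC1 (0.741%) and in 42 of 485 cDC2 (8.66%). In the main B cell cluster the count was 143 of 2466 (5.80%), which is no background level, because B cells hold several of these genes themselves. Cells share their library, so these intervals cover counting error only.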

How the data were processed

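Single-cell RNA sequencing was performed by the authors on CD45-sorted cells, with Cell Ranger, the mm10 genome and Seurat, and the gene number of the cells kept was 200 to 4000, with mitochondrial UMIs up to 20%. The deposited table of raw counts holds values of 32886 genes with compartment, cluster and facility of each cell. The authors' values are whole counts in Aachen and Bonn and estimated counts in Hamburg, where 0.118% of values are whole, and these were rounded after summing. In all, 676 gene names are listed at 0 in every Aachen cell although both other datasets hold over 100 UMIs of them, and 10 in Hamburg, among them Cd24a. No doublet caller was run.

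Counts of cDC1 were summed per library (5 cells or more) and tested with edgeR 4.0.16 (filterByExpr, TMM, quasi-likelihood test), and DESeq2 1.42.0 was an alternative. The SE is the log2 fold change divided by the square root of F. Levels are not TMM scaled. Dataset was a block because libraries pair by dataset: over 3173 genes, centred profiles correlated at 0.55 to 0.85 within datasets (9 pairs) and at -0.80 to 0.38 between them (27 pairs). Shares were compared by exact permutation of compartments within datasets. On simulated medulla against cortex data of 3173 genes edgeR recovered 66% of 2-fold and 85% of 4-fold changes, with 11 false calls, and DESeq2 recovered 42% and 79% with 0 false calls. For the interaction, simulated on 4833 genes, edgeR recovered 25% and 85% with 7 false calls. In both simulations changes were planted only in genes above a minimum mean count, so recovery does not cover the lowest genes. Counts were drawn per library, so transcripts held by few cells were not modelled.

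Genes were named from 27 lists and, per contrast, as up to 15 genes in each direction with the largest change that passed with 1 sign in all datasets, or, where fewer than 10 passed, the 10 with the smallest p. The members and lists were chosen with earlier results of these data known. The result of 1 gene that passed the interaction test is not reported here.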

Additional observations from a re-analysis of the deposited data

Results flagged for a closer look

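For 14 genes the medulla against cortex effect in cDC1 differed from that in cDC2 by a test of the difference itself (edgeR interaction term, adjusted over 4833 genes), given here for 13 of them as log2 of cDC1 minus cDC2. It was positive for the complement genes C1qb (3.12, adjusted p = 5.82e-04) and C1qa (2.63, 0.0312), for Csf1r (2.70, 0.0328), a growth factor receptor of macrophages, for the chemokine Cxcl2 (2.78, 0.0307) and for the interferon-induced Bst2 (1.20, 0.0356). It was negative for the chaperones Hspb1 (-4.04, 5.82e-04) and Dnajb1 (-1.60, 5.82e-04), for Itgae (-4.04, 0.00418), for Cd79a (-5.36, 0.0188), a B cell receptor chain, for Ier3 (-2.88, 0.00142), for Cst3 (-0.48, 0.0307), and for Lars2 (-0.96, 0.0188) and AY036118 (-1.12, 0.0188).

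Cxcl2 was seen in 15 cDC1, and 1 cell of Hamburg OM held 73.8% of its UMIs. Cd79a was seen in 9 cDC1 and Csf1r in 19. Hspb1 was seen in 25 cDC1, and 1 cell held 29.1% of its UMIs. The Ier3 difference was -3.41 in Hamburg, 0.46 in Aachen and -0.29 in Bonn. AY036118 had no UMI in the Aachen dendritic cells, and Lars2 had none in the Aachen cDC1. Leaving out 1 library kept the call of C1qb in 9 of 9 cases. The call of C1qa was lost without Aachen cortex, Aachen IM or Bonn OM (1.74 to 2.77), and that of Csf1r without Aachen IM, any Bonn library or Hamburg OM (1.37 to 2.65). The call of Cd79a was lost without Aachen IM, Bonn cortex or Hamburg OM (-5.51 to -4.86), that of Lars2 without the same 3 libraries (-0.96 to -0.81), that of AY036118 without Aachen IM, Hamburg cortex or Hamburg OM (-1.13 to -0.87), and that of Ier3 without Hamburg cortex or Hamburg OM (-0.19 and -1.09). That of Bst2 was lost without Aachen cortex, Aachen IM, Bonn cortex, Bonn IM or Hamburg OM (0.96 to 1.22), and that of Cxcl2 without Aachen IM or any Hamburg library (-0.041 to 3.70).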

How the results depend on the processing

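Counts of called genes are given in the order medulla, OM and IM, each against cortex, then OM against IM, with 3, 3, 4 and 1 as reported. DESeq2 called 0, 0, 2 and 0 (29, 36, 35 and 39 at an unadjusted p under 0.05). Without a filter on low counts the numbers were 29, 27, 17 and 14. Without the replicate block by dataset they were 0, 0, 0 and 0 (10, 20, 16 and 26 unadjusted). With libraries of at least 20 cDC1 they were 45, 34, 25 and 9, and without cells holding other cell types' markers 52, 34, 33 and 10, and both of these leave out the Bonn OM and IM libraries. With cells thinned to 500 UMIs, which left 269 genes, they were 1, 2, 0 and 0. Leaving out each dataset or, as an alternative chosen after seeing the data, each library gave 0 to 11, 0 to 11, 2 to 7 and 0 to 5. For the interaction (14 genes) DESeq2 called 0 (44 unadjusted), no filter 26, no replicate block 1, and leaving out a dataset or library 4 to 26. Without Hamburg cortex or Hamburg OM the medulla count was 0, and without Bonn cortex it was 11.

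Direction reversed in 4 of 820 alternative values of named genes: C1qb in IM (-1.09) and Apoe in OM against IM (0.62) without cells holding other markers, the Cxcl2 interaction without Hamburg OM (range -0.041 to 3.70 without a dataset or library) and the Ier3 interaction without the Hamburg dataset (range -3.44 to 0.10). Of the others, 605 kept direction and side of the threshold, 138 lost the threshold and 73 passed it. The cause was not tested. The choice behind the C1qb and Apoe reversals removes cells with 5 or more C1q UMIs or 2 or more of lymphocyte genes. It also leaves out the Bonn OM and IM libraries. The cDC1 share of conventional dendritic cells lay at -34.1 to -29.1 points without each dataset (exact permutation p = 0.111, the smallest possible for 2 datasets), and the share of immune cells at -1.37 to -0.509. Against mononuclear phagocytes only, the cDC1 share differed by -4.80 points (exact permutation p = 0.037).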

Other observations

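Of 8 genes of the oxidative stress list, 2 were higher in cDC1 than in cDC2 in 9 of 9 libraries, Txn1 (1.84) and Prdx1 (0.43), and 2 lower, Fth1 (-1.24) and Nfe2l2 (-1.64), as mean log2 differences over 3 datasets and without a test. Of 14 hypoxia and glycolysis genes 1 was higher, Ldha (0.64), and 1 lower, Eno1 (-1.45), shares at or below the 7.86% and 10.7% of all genes compared. Clec9a was not restricted to cDC1: 47 of 99 plasmacytoid dendritic cells held a UMI of it.

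The 2 barcode suffixes within each Aachen library gave separate cDC1 shares of conventional dendritic cells, 76.9% and 50% in cortex, 25% and 14.3% in OM and 40% and 30.3% in IM, with cortex highest throughout.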
